A study of Mus musculus with 8 samples.

Results

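The cytoplasmic ribosomal protein genes code for the proteins that, together with the ribosomal RNAs, make up the large and the small subunit of the ribosome outside mitochondria. They were chosen by symbol, as *Rpl* or *Rps* followed by a number and in some cases by the letter a, l, x or y and a further digit, together with *Rpsa*, *Rplp0*, *Rplp1* and *Rplp2*. Only genes annotated as protein-coding were taken. Genes named as pseudogenes of members were left out by the symbol, since 11 of the 28 such genes in the table are annotated as protein-coding. The annotation of the mouse genome build NCBIM37 holds 83 such genes, and 81 of them, 48 of the large and 33 of the small subunit, were among the 15880 genes of the deposited table. *Rpl3l* and *Rpl10l* were annotated but had no entry in the table. *Rps4y2* is protein-coding in this annotation, whereas RefSeq lists it as *Rps4l* and as a transcribed pseudogene.

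Ribosomal proteins are needed in near equal numbers, since each ribosome holds a single copy of most of them, and cells degrade the surplus. Their mRNAs begin with a run of pyrimidines, the 5′ terminal oligopyrimidine or TOP motif, through which mTOR and Larp1 control their translation, so that the level of the mRNA and the output of protein can differ. Inherited loss of a copy of a single member, such as *RPS19*, *RPL5* or *RPL11*, causes Diamond-Blackfan anaemia, in which red cell precursors fail, and mutations of *Rpl38* and *Rpl24* in mice change the skeleton.

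RNA was sequenced from 4 populations of cells taken from the bones of *Nes-Gfp* mice on postnatal day 1, with 2 libraries per population. The bones were crushed and digested with collagenase, and cells without the surface markers CD45, CD31 and Ter119 were sorted by GFP and by surface Pdgfrα. All mice were *Nes-Gfp* heterozygotes on the C57BL/6 background, in which GFP is driven by nestin regulatory elements, so GFP marks activity of the transgene rather than the *Nes* transcript. Each library came from a pool of 3 pups and from 15000 to 80000 sorted cells, whose RNA was amplified as cDNA.

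The 4 populations were GFP+ Pdgfrα+, GFP- Pdgfrα+, GFP+ Pdgfrα- and GFP- Pdgfrα-, and values below are given in that order, replicate 1 before replicate 2. Between 3221217 and 5302762 reads per library fell on genes of the table. A normalized value is the number of reads of a gene plus 0.5, per 1000000 of an effective library size, which is the number of reads multiplied by a factor the authors' normalization gave to each library. That factor was 1.02 and 1.04 in GFP+ Pdgfrα+ libraries, 1.03 and 1.05 in GFP- Pdgfrα+ libraries, 1.13 and 1.13 in GFP+ Pdgfrα- libraries, and 0.858 and 0.800 in GFP- Pdgfrα- libraries. Of both Pdgfrα- populations, the same share of reads therefore gives the higher normalized value in GFP- cells, which matters for a family whose members move together.

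The sorted labels were checked against transcripts. *Pdgfra* had normalized values of 733 and 754, 839 and 794, 18.1 and 10.4, and 3.30 and 4.36, so both Pdgfrα+ populations were far above both Pdgfrα- populations. *Nes* had values of 57.6 and 72.0, 27.4 and 47.1, 149 and 176, and 3.59 and 9.08, which were highest in GFP+ Pdgfrα- cells. Ter119 marks maturing erythroid cells and had been used to remove them, yet the 8 erythroid marker genes of the table, of 10 listed, summed to 40.9 and 39.1, 51.7 and 34.5, 148 and 77.9, and 11465 and 18945. *Hbb-b1*, a beta globin, was the most abundant of them, while *Hbb-bh1* and *Hbb-y* were not in the table. All 14 proliferation genes were higher in GFP- Pdgfrα- cells than in either neighbouring population, with summed values of 686 and 595, 363 and 301, 1213 and 1069, and 9644 and 10768, of which *Mki67* was the most abundant.

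The other marker lists also separated the populations. Osteoblast genes, led by *Col1a1*, summed to 54725 and 40745, 17032 and 15500, 3334 and 2778, and 464 and 595. Pericyte and smooth muscle genes, led by *Rgs5*, summed to 368 and 273, 306 and 331, 1577 and 2075, and 61.3 and 103. Skeletal muscle genes, led by *Pax7*, summed to 658 and 653 in GFP+ Pdgfrα- cells and to between 15.8 and 71.6 elsewhere, and Schwann lineage genes, led by *Erbb3*, to 431 and 402 there and to between 19.4 and 104 elsewhere. GFP+ Pdgfrα- cells were thus highest for muscle, Schwann and pericyte genes, and GFP- Pdgfrα- cells for erythroid and proliferation genes. The differences of ribosomal protein genes below were measured between populations that differ in all of these lists, and the part of cell composition in them was not tested. In bulk samples, more cells of a type rich in ribosomal protein mRNA and more such mRNA per cell cannot be told apart.

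Ribosomal protein genes were short and abundantly read. Their median length of exon was 914 bases, against 3213.5 for the 14110 protein-coding genes of the table, with 5 against 9 exons and a span of 3243 against 23673 bases. The median normalized value per kilobase (kb) of exon was 224, against 5.74 for all protein-coding genes, and 78 of the 81 were above the 90th percentile of those genes on this scale. Per kb of exon the highest levels were those of *Rpl4* at 1136, *Rps27* at 1122 and *Rpl10* at 909, and the lowest those of *Rpl39l* at 1.08, *Rps4y2* at 3.56 and *Rpl7l1* at 7.05. The members lay on 19 chromosomes, 4 of them on the X, so they did not lie together. Small nucleolar RNA genes, whose products guide the chemical modification of ribosomal RNA, lay inside 30 of the 81 on the same strand (37.0%, against 1.76% of all protein-coding genes), with 58 such genes in all.

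Together the 81 genes took 1.56% and 1.46% of the reads of GFP+ Pdgfrα+ libraries, 1.56% and 1.34% of GFP- Pdgfrα+ libraries, 2.94% and 2.47% of GFP+ Pdgfrα- libraries, and 2.94% and 2.76% of GFP- Pdgfrα- libraries. All 4 Pdgfrα- libraries were above all 4 Pdgfrα+ libraries, and within each of these groups the GFP+ and GFP- libraries overlapped. The means were 1.51% ± 0.0680 (SD, n = 2), 1.45% ± 0.151, 2.70% ± 0.330 and 2.85% ± 0.124, so that the Pdgfrα- share was 1.96 times the Pdgfrα+ share among GFP- cells and 1.79 times among GFP+ cells. The 95% Wilson interval of each library spanned at most 0.0347 percentage points, and it covers counting error only. With 2 libraries against 2, the smallest two-sided p that an exact permutation test can give is 0.333, so these shares are given with no test.

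**Figure D1:**
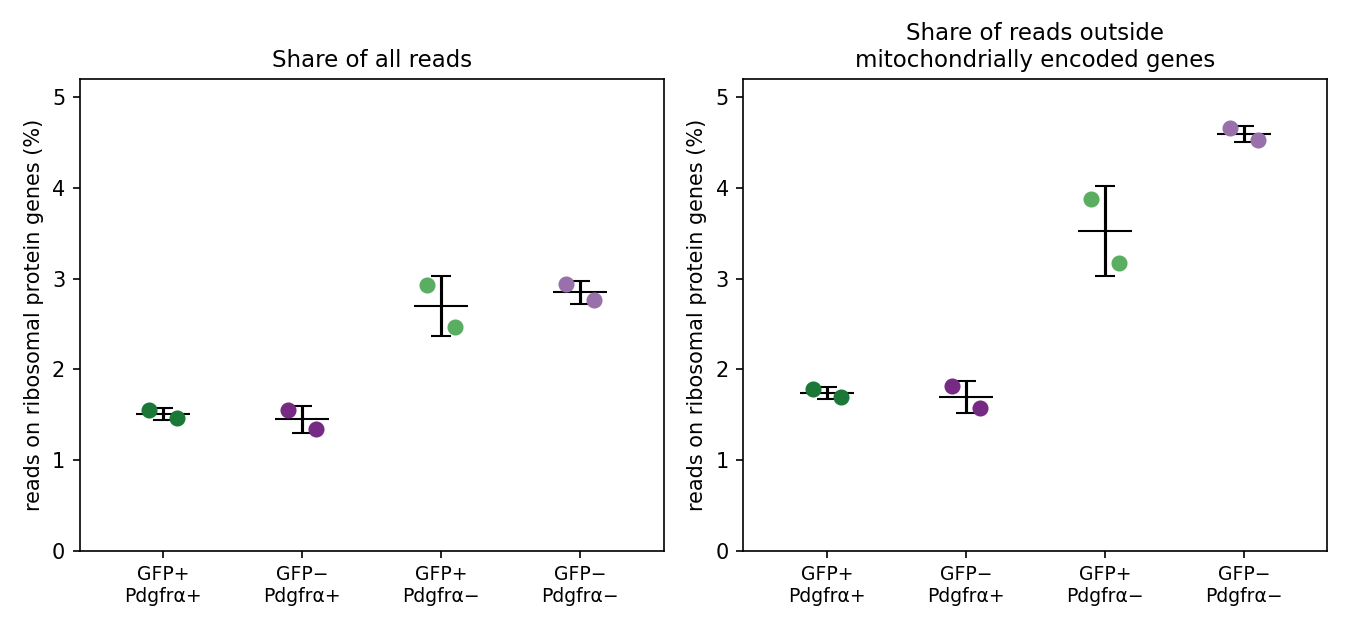
Percent of reads on the 81 ribosomal protein genes (y axis) by sorted population (x axis), of all reads on the left and of reads outside mitochondrially encoded genes on the right, with 1 point per library and black lines for the mean and SD of 2 libraries. On the left the Pdgfrα+ libraries lie between 1.34% and 1.56% and the Pdgfrα- libraries between 2.47% and 2.94%, and on the right GFP- Pdgfrα- cells also lie above GFP+ Pdgfrα- cells.

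Reads on mitochondrially encoded genes, which rise and fall with both cell type and RNA quality, made up 13.4%, 14.5%, 23.2% and 38.0% of the reads on average in the 4 populations. Without those reads the share of ribosomal protein genes was 1.74%, 1.696%, 3.52% and 4.60%, and GFP- Pdgfrα- cells were then at 1.30 times the share of GFP+ Pdgfrα- cells, against 1.05 times with them. Taking out haemoglobin genes as well, which held 0.894% and 1.42% of the reads of the GFP- Pdgfrα- libraries, gave 4.68% there. The order of the Pdgfrα+ and Pdgfrα- populations was the same on all 3 totals, whereas the gap between both Pdgfrα- populations depended on the total used. The part of the mitochondrial reads in these shares was not tested.

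Gene by gene, the separation by Pdgfrα held for most of the family. In 72 of the 81 genes all 4 Pdgfrα- libraries had higher normalized values than all 4 Pdgfrα+ libraries, as did 12% of all genes of the table. The reverse held for *Rpl39l* and *Rps4y2*, and the other exceptions, with overlapping libraries, were *Rpl10*, *Rpl22l1*, *Rpl35a*, *Rpl7a*, *Rplp1*, *Rps27* and *Rps27l*, of which *Rpl35a* and *Rpl7a* are named after their values were seen. The ratio of the Pdgfrα- to the Pdgfrα+ mean had a median of 2.12 over the 81 genes and quartiles of 1.80 and 2.27, and it was above 1.5 in 73 and above 2 in 51. It was highest for *Rpsa*, at 3.36. GFP- Pdgfrα- cells had the highest mean of 75 genes, GFP+ Pdgfrα- cells of 3 and GFP+ Pdgfrα+ cells of 3.

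Each comparison was then fitted with limma on log2(value + 1) of the whole table, with the threshold for a call at a Benjamini-Hochberg adjusted p of at most 0.05 over the 15880 genes. The first question was whether Pdgfrα+ cells differ from Pdgfrα- cells within the GFP- and within the GFP+ fraction. These comparisons share no library with each other, but they are not independent. Same-numbered libraries were read as coming from the same pools of pups, and the fit takes its spread from all 8 libraries. Among GFP- cells, 75 of the 81 ribosomal protein genes were lower in Pdgfrα+ cells, where 26.8% of all genes were called lower, and 1, *Rpl39l*, was called higher, where 32.9% were called higher. Among GFP+ cells, 59 of the 81 were lower in Pdgfrα+ cells, against 11.1% of all genes, and 1, *Rpl39l*, was called higher, against 13.1%. *Rpl39l* had reads in Pdgfrα+ libraries only. Its normalized values there were at most 1.87, and it stood below the authors' stated filter on low counts. Only libraries with reads could have kept it in the table, so its calls as higher, here and on other scales, are not free tests. All 59 were also among the 75.

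The median log2 difference of the 81 genes, Pdgfrα+ minus Pdgfrα-, was −1.28 among GFP- cells and −0.73 among GFP+ cells, where that of all genes was 0.17 and −0.02. Both signs held under each scaling tried except that on the median of the ribosomal protein genes, which sets their own median near 0. Large and small subunit genes moved alike, with medians of −1.25 and −1.30 among GFP- cells and of −0.76 and −0.72 among GFP+ cells. The difference was more negative among GFP- than among GFP+ cells in 74 of the 81 genes on the authors' scaling. That count was 81 when centred on the median of all genes, 67 on totals without mitochondrial genes and 63 after quantile normalization. It was 42 on all reads of each library and 28 when centred on the family's own median. Across the genes, which are not independent replicates, both sets of differences had a Pearson's r of 0.54 and a Spearman's rho of 0.21. Both coefficients include *Rpl39l*, which lay apart at 1.22 among GFP- and 1.26 among GFP+ cells with 0 reads in Pdgfrα- libraries. They were not computed without it, so no conclusion is drawn from them. The 5 genes not called among GFP- cells were *Rpl10*, *Rps27*, *Rpl22l1*, *Rps4y2* and *Rpl35a*, and they were also among the 21 not called among GFP+ cells. The 59 lower genes among GFP+ cells became 33 without GFP+ Pdgfrα+ replicate 2, 25 without GFP+ Pdgfrα- replicate 1, and 27 with no mean-variance trend in limma.

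**Figure D2:**
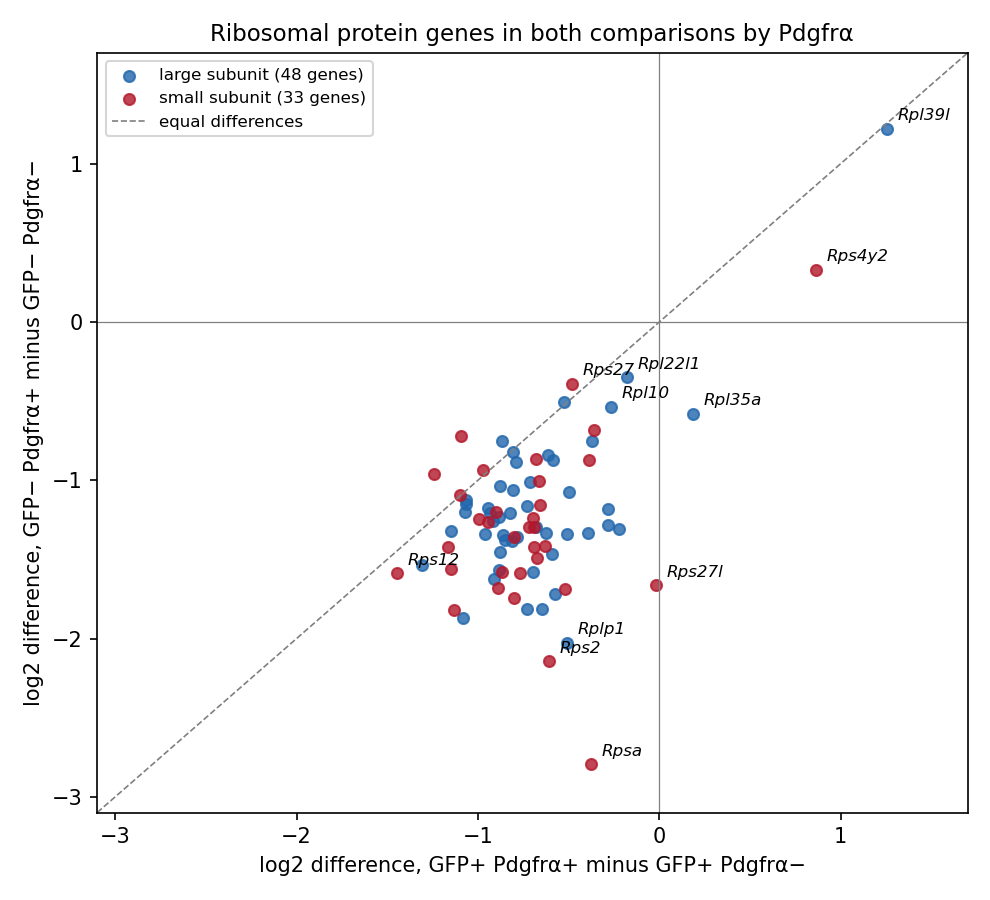
Each point is 1 of the 81 ribosomal protein genes, with its log2 difference of Pdgfrα+ minus Pdgfrα- cells among GFP+ cells (x axis) and among GFP- cells (y axis), on the authors' scaling, and the dashed line marks equal differences. Most points lie below 0 on both axes, with medians of −0.73 and −1.28, *Rpsa* lies lowest and *Rpl39l* lies apart above 0 on both, though centring on the family's own median moves its medians to near 0.

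The second question was whether GFP+ cells differ from GFP- cells at the same Pdgfrα status. Among Pdgfrα+ cells, 1 of the 81 genes, *Rpsa*, was called higher in GFP+ cells (3.22% of all genes were) and 0 were called lower (2.13% were). At an unadjusted p under 0.05 limma gave 5 genes in either direction, and edgeR and voom each called 1 gene. The median log2 difference was 0.03, against 0.00 for all genes. Each of these comparisons shares its libraries with both Pdgfrα comparisons.

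Among Pdgfrα- cells, 37 of the 81 were lower in GFP+ than in GFP- cells (23.6% of all genes were) and 0 were higher (30.1% were), with 42 genes at an unadjusted p under 0.05. Neither edgeR nor voom on the recovered reads called a gene higher, and they called 44 and 52 lower. The median log2 difference, GFP+ minus GFP-, was −0.45 on the authors' scaling, against 0.15 for all genes, but −0.01 when values were scaled to all reads of each library, an alternative added after the data were seen. On that scale 9 genes were lower and 2 higher, where 15% and 38% of all genes were called. The 2 were *Rpl5*, at 0.60, and *Rps14*, at 0.58. The size of the family's difference between both Pdgfrα- populations thus depended on the scaling. Without GFP+ Pdgfrα- replicate 2 the count of 37 became 20, and with no mean-variance trend it became 21.

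The interaction asks whether the difference of GFP+ and GFP- cells depended on Pdgfrα. It was positive and called in 24 of the 81 genes and negative in 0, with 34 at an unadjusted p under 0.05 in limma, where 19.1% and 25.2% of all genes were called. Here edgeR and voom called 26 and 29 members higher, while 11 were called with no mean-variance trend, 15 after quantile normalization and 58 when centred on the median of all genes. On all reads of each library it was called in 7 genes as positive and in *Rps14* as negative, where 12.7% and 31.7% of all genes were called. The 7 were *Rpsa*, *Rps27l*, *Rps2*, *Rplp1*, *Rpl3*, *Rpl12* and *Rpl7a*, the last 3 named after their values were seen. The interaction shares all its libraries with the pairwise comparisons.

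Scaling on all reads left the Pdgfrα comparisons in place. Pdgfrα+ cells were then lower than Pdgfrα- cells for 68 of the 81 genes among GFP- cells and for 71 among GFP+ cells, where 21.1% and 15.1% of all genes were called lower, and higher for *Rpl39l* in both, where 38% and 11.7% were called higher. The medians of the family were −0.96 among GFP- and −0.87 among GFP+ cells on that scale, closer to each other than on the authors' scaling.

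Centring each library on the median of all its genes moved the medians further down. That median was lowest in GFP- Pdgfrα- libraries, which GFP- Pdgfrα+ libraries exceeded by 0.45 and GFP+ Pdgfrα- libraries by 0.45 on the log2 scale, while the GFP+ Pdgfrα+ libraries exceeded either of these by 0.03. After this centring the family's medians were −1.74 and −0.76 in the Pdgfrα comparisons of GFP- and GFP+ cells and −0.91 between GFP+ and GFP- cells without Pdgfrα. Among GFP- cells 78 genes were then lower and 0 higher in Pdgfrα+ cells (36% and 24.6% of all genes), with 79 at an unadjusted p under 0.05 in limma. Among GFP+ cells 64 were lower and 1 higher (11.9% and 12.8% of all genes), and among Pdgfrα- cells 73 were lower and 0 higher in GFP+ cells (35.1% and 22.4% of all genes).

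Centring on the median of the 81 genes themselves asks which members left the family's common course. Among GFP- cells 14 genes were then higher and 7 lower in Pdgfrα+ cells, where 67.8% and 7.29% of all genes were called. The 7 were *Rpsa*, *Rps2*, *Rplp1*, *Rplp2*, *Rps7*, *Rpl8* and *Rpl3*, the last 3 named after their values were seen. The 14 included *Rpl39l*, *Rps4y2*, *Rpl22l1*, *Rps27*, *Rpl10*, *Rps14*, *Rpl5*, *Rpl39*, *Rpl11* and *Rpl24*. Among GFP+ cells *Rpl39l* and *Rps4y2* were higher and 0 were lower in Pdgfrα+ cells, where 35.9% and 3.07% of all genes were called, with 10 genes at an unadjusted p under 0.05 in limma in either direction.

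On the same centred scale, *Rpsa*, *Rps2* and *Rplp1* were lower in GFP+ than in GFP- cells without Pdgfrα, and *Rpl5*, *Rps14*, *Rpl10*, and, named after their values were seen, *Rps13* and *Rpl30* were higher, where 11.2% and 42.9% of all genes were called. Both centred calls of *Rpl10*, here and by Pdgfrα among GFP- cells, use its own reads without those of its pseudogenes. With these added and no centring, its difference between the Pdgfrα- populations was −0.35, beside a family median of −0.47. Summed values were not centred on the family. *Rpsa* remained the 1 gene called between the Pdgfrα+ populations, higher in GFP+ cells, where 2.29% of all genes were higher and 1.85% lower. The interaction was positive for *Rpsa*, *Rps2* and *Rplp1* and negative for *Rps14*, where 8.7% and 36% of all genes were called.

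*Rpsa* codes for a small subunit protein that also serves as the laminin receptor at the cell surface, and it had the most negative Pdgfrα difference of the family among GFP- cells. It lies at chr9:120036884-120041487 on the plus strand of NCBIM37 and holds 3 small nucleolar RNA genes. Its normalized values were 190 and 165, 101 and 98.5, 241 and 220, and 619 and 783. Each population was apart from the 3 others, with GFP- Pdgfrα- cells highest and GFP- Pdgfrα+ cells lowest. Among GFP- cells the log2 difference of Pdgfrα+ minus Pdgfrα- was −2.79 ± 0.14 (SE, limma adjusted p = 8.01e-09), and among GFP+ cells it was −0.38 with an adjusted p of 0.0769.

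*Rpsa* was also the 1 member that differed by GFP among Pdgfrα+ cells, with a log2 difference of 0.82 ± 0.14 (limma adjusted p = 0.00575) and both GFP+ libraries above both GFP- libraries. Without either GFP- Pdgfrα+ library, or without the trend, this call was lost, with adjusted p of up to 0.0955 over the alternatives. This range and those of the members below leave out centring on the family's own median. Among Pdgfrα- cells the difference was −1.59, and it was −1.14 on all reads of each library. The interaction was 2.42 (limma adjusted p = 1.94e-06), and 1.96 on all reads. *Rpsa-ps10*, a pseudogene by name and protein-coding in this annotation, held 22.0% of the summed values of both genes. Proliferation genes followed the same order of populations, and their part in the values of *Rpsa* was not tested.

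*Rplp0*, *Rplp1* and *Rplp2* form the stalk of the large subunit, which recruits the elongation factors that drive translation. *Rplp1* had normalized values of 158 and 120, 145 and 90.4, 252 and 153, and 469 and 472. *Rplp2* had values of 132 and 109, 143 and 99.3, 318 and 203, and 466 and 414. *Rplp0* had values of 290 and 228, 318 and 247, 522 and 448, and 870 and 860. All 3 were highest in GFP- Pdgfrα- cells, and the Pdgfrα+ populations overlapped.

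Among GFP- cells the stalk genes had log2 differences of Pdgfrα+ minus Pdgfrα- of −2.03 for *Rplp1*, −1.87 for *Rplp2* and −1.62 for *Rplp0*, all called. Relative to the family's median those of *Rplp1* and *Rplp2* were −0.70 and −0.55 and still called, and that of *Rplp0* was −0.30 and not called. Among GFP+ cells *Rplp0* and *Rplp2* were lower in Pdgfrα+ cells, by −0.91 and −1.08, while *Rplp1* had −0.51 and an adjusted p of 0.165 in limma. The call of *Rplp2* there was lost under some alternatives, with adjusted p of up to 0.0599. Between the Pdgfrα- populations *Rplp1* differed by −1.26 ± 0.25 (SE, limma adjusted p = 0.000991) and by −0.81 on all reads, and *Rplp0* by −0.84 and by −0.39, so both were lower in GFP+ cells on both scales. *Rplp2* differed by −0.79 there, a call that was lost on all reads.

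*Rps2*, a protein at the entry of the mRNA channel of the small subunit, had the next most negative Pdgfrα difference among GFP- cells. It lies at chr17:24855061-24858874 on the plus strand, where *Snhg9* and *Snora64* overlap its exons. Its normalized values were 117 and 85.2, 99.2 and 78.6, 161 and 145, and 422 and 367. Both GFP- Pdgfrα- libraries were more than 2 times any other library. Among GFP- cells the log2 difference of Pdgfrα+ minus Pdgfrα- was −2.14 ± 0.17 (SE, limma adjusted p = 4.89e-07), and among GFP+ cells −0.61 (adjusted p = 0.0244, and 0.00182 to 0.196 over the alternatives). Between the Pdgfrα- populations it was −1.36, and −0.91 on all reads of each library.

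*Rps6* is the substrate of the S6 kinases that act downstream of mTOR. Its normalized values were 151 and 119, 137 and 92.8, 159 and 233, and 371 and 358, so GFP- Pdgfrα- cells stood above the other populations. Its log2 difference of Pdgfrα+ minus Pdgfrα- was −1.68 among GFP- cells (limma adjusted p = 2.25e-05) and −0.52 among GFP+ cells, where it was not called. GFP+ Pdgfrα- minus GFP- Pdgfrα- cells gave −0.92, a call that was lost on all reads.

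*Rpl5* and *Rpl11* bind Mdm2 with 5S ribosomal RNA when ribosome assembly fails, which stabilizes p53. *Rpl5* had normalized values of 54.3 and 64.0, 73.5 and 44.996, 115 and 102, and 87.5 and 109, and *Rpl11* of 211 and 137, 197 and 178, 292 and 223, and 398 and 297. *Rpl5* libraries of both Pdgfrα- populations therefore overlapped, unlike those of *Rpsa* and *Rps2*. The log2 difference of Pdgfrα+ minus Pdgfrα- for *Rpl5* was −0.75 among GFP- and −0.87 among GFP+ cells, both called in limma. Both calls were lost under some alternatives, with adjusted p of up to 0.143 and 0.117, and the difference among GFP- cells was then as small as −0.40. For *Rpl11* it was −0.87 among GFP- cells, and −0.58 among GFP+ cells with an adjusted p of 0.0637. Relative to the family's median both genes were higher in Pdgfrα+ cells among GFP- cells, by 0.58 and 0.45, and neither was called among GFP+ cells, at −0.18 and 0.10.

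*Rps19* and *Rps14* belong to the small subunit and are known from failing red cell production, *Rps14* through the human 5q deletion. *Rps19* had normalized values of 88.8 and 99.6, 115 and 79.7, 206 and 214, and 247 and 327, and *Rps14* of 142 and 130, 184 and 141, 303 and 280, and 208 and 341. All Pdgfrα- libraries were above all Pdgfrα+ libraries for both genes, and the Pdgfrα- libraries of *Rps14* overlapped. Among GFP+ cells the log2 differences of Pdgfrα+ minus Pdgfrα- were −1.15 for *Rps19* and −1.09 for *Rps14*, and among GFP- cells −1.56 and −0.72, all called. The call of *Rps14* among GFP- cells was lost under some alternatives, with adjusted p of up to 0.109 and a difference as small as −0.37. For *Rps14* the interaction was −0.37 on the authors' scaling and not called (limma adjusted p = 0.329). On all reads it was −0.83 ± 0.26 (SE, limma adjusted p = 0.0221), opposite in sign to that of *Rpsa*.

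*Rpl38* and *Rpl24*, the genes of the mouse skeletal mutants Tail-short and Belly spot and tail, had the family's direction in both fractions. *Rpl38* had normalized values of 74.99 and 69.7, 72.5 and 57.5, 128 and 106, and 124 and 206, and *Rpl24* of 189 and 180, 219 and 205, 368 and 280, and 414 and 372. Neither pair of Pdgfrα+ and Pdgfrα- populations overlapped for either gene. The log2 differences of Pdgfrα+ minus Pdgfrα- were −1.30 among GFP- and −0.68 among GFP+ cells for *Rpl38*, and −0.88 and −0.79 for *Rpl24*, all called. The call of *Rpl38* among GFP+ cells had adjusted p of up to 0.262 over the alternatives. Relative to the family's median *Rpl24* was called higher in Pdgfrα+ cells among GFP- cells, by 0.44.

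*Rpl13a*, which also takes part in the silencing of inflammatory mRNAs and holds 4 small nucleolar RNA genes, had normalized values of 156 and 125, 149 and 130, 252 and 263.8, and 374 and 461. It was lower in Pdgfrα+ cells by log2 differences of −1.57 among GFP- and −0.88 among GFP+ cells. *Rps27a*, made as a fusion with ubiquitin, had values of 23.3 and 14.2, 23.6 and 27.8, 48.2 and 41.0, and 62.2 and 41.4 and log2 differences of −0.96 and −1.24. *Rps27a* therefore had the family's direction in both fractions. *Rpl27a* had values of 31.1 and 20.8, 25.3 and 27.8, 65.7 and 63.4, and 69.9 and 88.5, with log2 differences of −1.53 and −1.31. These Pdgfrα differences were all called in limma, those of *Rps27a* not under all alternatives (adjusted p of up to 0.0806 and 0.068).

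*Rpl4*, whose long extension lines the exit tunnel of the large subunit, was the member with the highest value per kb. It lies at chr9:64021194-64026369 on the plus strand and holds 5 small nucleolar RNA genes. Its normalized values were 1165 and 1055, 1056 and 1007, 1788 and 1631, and 2857 and 2367. The populations were in the same order as for the family as a whole, and its log2 differences of Pdgfrα+ minus Pdgfrα-, −1.33 ± 0.13 among GFP- cells (SE, limma adjusted p = 1.9e-06) and −0.62 among GFP+ cells, were near the family's medians. The call among GFP+ cells was lost under some alternatives, with adjusted p of up to 0.0723.

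*Rps27*, a zinc finger protein of the small subunit, was not called in any of the pairwise comparisons on the authors' scaling. Its normalized values were 271 and 302, 375 and 360, 466 and 341, and 395 and 587. Libraries of Pdgfrα+ and Pdgfrα- cells therefore overlapped across the GFP fractions but not within either fraction. The log2 difference of Pdgfrα+ minus Pdgfrα- was −0.39 among GFP- cells (limma adjusted p = 0.0928) and −0.48 among GFP+ cells (adjusted p = 0.087). Relative to the family's median it was 0.94 higher in Pdgfrα+ cells among GFP- cells (limma adjusted p = 0.000735).

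*Rpl10*, an X-linked member that joins the large subunit late in its assembly, had normalized values of 846 and 706, 670 and 582, 953 and 909, and 1241 and 660. The last pair differed more than the populations did, and the gene was not called in any of the 4 pairwise comparisons. Its pseudogenes *Rpl10-ps1* and *Rpl10-ps3* held 22.6% of the summed values of *Rpl10* and these genes, and with their reads added the sums were 891 and 888, 811 and 820, 1116 and 1112, and 1433 and 1416. Replicates then lay close together, and the log2 difference of Pdgfrα+ minus Pdgfrα- was −0.80 among GFP- cells (limma adjusted p = 2.42e-05) and −0.32 among GFP+ cells (adjusted p = 0.0374). GFP+ minus GFP- cells gave −0.35 without Pdgfrα (limma adjusted p = 0.0113) and no call with it. The interaction of the sums was 0.48 (limma adjusted p = 0.0178). This summing was added after the data were seen.

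Other members also have pseudogenes, which are near copies of the mRNA. Of the 81 genes, 24 had 1 or more named pseudogenes in the table, 28 in all, and these held 72.3% of the summed values for *Rpl15*, 67.0% for *Rps16*, 56.6% for *Rpl10a*, 53.1% for *Rpl27* and 50.6% for *Rps12*. All but *Rps12* in that list are named after their values were seen. *Rps12* had normalized values of 61.2 and 17.1, 50.8 and 38.8, 98.5 and 82.97, and 147 and 125 on its own, and of 84.5 and 68.7, 89.0 and 69.5, 179 and 162, and 244 and 361 with *Rps12-ps3*. With each member summed with its pseudogenes, Pdgfrα+ cells were lower for 76 genes among GFP- and 61 among GFP+ cells, in place of 75 and 59. Only the 28 pseudogenes in the table could be added, of 163 annotated. Exons of 26 members overlap exons of another gene, and whether reads were counted by strand is not stated.

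*Rpl35a*, named after its values were seen, was apart in 1 library. Its normalized values were 90.7 and 523, 125 and 131, 225 and 163, and 189 and 194, a ratio of 5.76 between the GFP+ Pdgfrα+ replicates. For comparison, the median ratio of the higher to the lower replicate over the family was 1.16 in that population and 1.21 in each of the 3 others. *Rpl35a* was not called in any comparison of the main fit. Its log2 difference of Pdgfrα+ minus Pdgfrα- was 0.19 among GFP+ cells. Dropping replicate 1 of the discordant pair moved it to 1.44, and dropping replicate 2 moved it to −1.07. Its sign thus changed with the library dropped. Among GFP- cells the difference was −0.58 (limma adjusted p = 0.378). It was called in the fit of the compared populations alone (limma adjusted p = 0.00499).

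A few ribosomal proteins have a second gene, a paralog that replaces them in some tissues. *Rpl39l*, a paralog of *Rpl39* known from the testis, was not read where most of the family was highest. It had 5 and 6 reads in GFP+ Pdgfrα+ libraries, 6 and 5 in GFP- Pdgfrα+ libraries and 0 in each of the 4 Pdgfrα- libraries. Against 3 reads per library, the upper limit at 95% confidence for a count of 0, and with the 5 or 6 reads taken as observed, it was at least 1.94-fold higher in Pdgfrα+ cells among GFP+ and at least 1.79-fold higher among GFP- cells. Its tests are not given as support, since only the cells that had reads could have kept it in the table. It stood below the study's stated filter, and the alternative with a filter on low values left 80 members, without *Rpl39l*. With *Rpl39l* put at that limit the family's medians were −0.73 and −1.28 as before. At 22 reads in all, the gene was close to the limit of detection.

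*Rpl39*, its parent gene, had normalized values of 192 and 155, 215 and 164, 343 and 269, and 281 and 393, and was lower in Pdgfrα+ cells in both fractions, with log2 differences of −0.82 and −0.81 among GFP- and GFP+ cells, and adjusted p in limma of up to 0.0515 and 0.129 over the alternatives. *Rps4y2*, a single-exon gene, had 18 and 13, 14 and 14, 7 and 8, and 9 and 13 reads and normalized values of 5.11 and 3.88, 3.66 and 4.31, 1.82 and 2.19, and 2.73 and 3.18. All Pdgfrα+ libraries were above all Pdgfrα- libraries, but no comparison was called in the main fit. Among GFP+ cells the log2 difference of Pdgfrα+ minus Pdgfrα- was 0.86, called in limma with no mean-variance trend (adjusted p = 0.0306, and up to 0.322 over the alternatives). Among GFP- cells it was 0.33, with the opposite sign when centred on all genes or quantile normalized. Relative to the family's median it was called higher in both. Its X-linked relative *Rps4x* had values of 585 and 500, 605 and 478, 1122 and 912, and 1299 and 1180 and fell in Pdgfrα+ cells with log2 differences of −1.20 and −0.90.

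*Rpl22l1* can take the place of *Rpl22* in the large subunit, and *Rpl22* protein is known to repress it. *Rpl22l1* had normalized values of 53.2 and 41.2, 53.1 and 39.7, 62.3 and 45.1, and 66.2 and 52.0, and *Rpl22* of 125 and 123, 155 and 125, 255 and 197, and 406 and 327. The paralog overlapped between all populations and was not called, while *Rpl22* was lower in Pdgfrα+ cells with log2 differences of −1.38 among GFP- and −0.85 among GFP+ cells, the latter with an adjusted p in limma of up to 0.0506 over the alternatives. Relative to the family's median *Rpl22l1* was higher by 0.98 in Pdgfrα+ cells among GFP- cells (limma adjusted p = 0.000996). *Rpl7l1*, a relative of *Rpl7* with a role in ribosome assembly, had values of 17.3 and 14.5, 14.0 and 12.9, 20.5 and 21.0, and 25.1 and 21.6. Its log2 difference was −0.75 among GFP- cells (limma adjusted p = 0.0171, and up to 0.142 over the alternatives), where that of *Rpl7* was −1.21.

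*Rps27l*, a paralog of *Rps27* that p53 induces, had normalized values of 12.01 and 18.8, 8.19 and 8.76, 19.1 and 12.2, and 26.3 and 32.0. Values were highest in GFP- Pdgfrα- cells and lowest in GFP- Pdgfrα+ cells, as for *Rpsa*, and GFP+ cells overlapped. The log2 difference of Pdgfrα+ minus Pdgfrα- was −1.66 ± 0.31 among GFP- cells (SE, limma adjusted p = 0.000505) and −0.02 among GFP+ cells (adjusted p = 0.973), and the interaction was 1.64 (limma adjusted p = 0.00872). *Rps27* was not called in either, and the difference between paralog and parent was not tested.

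**Figure D3:**
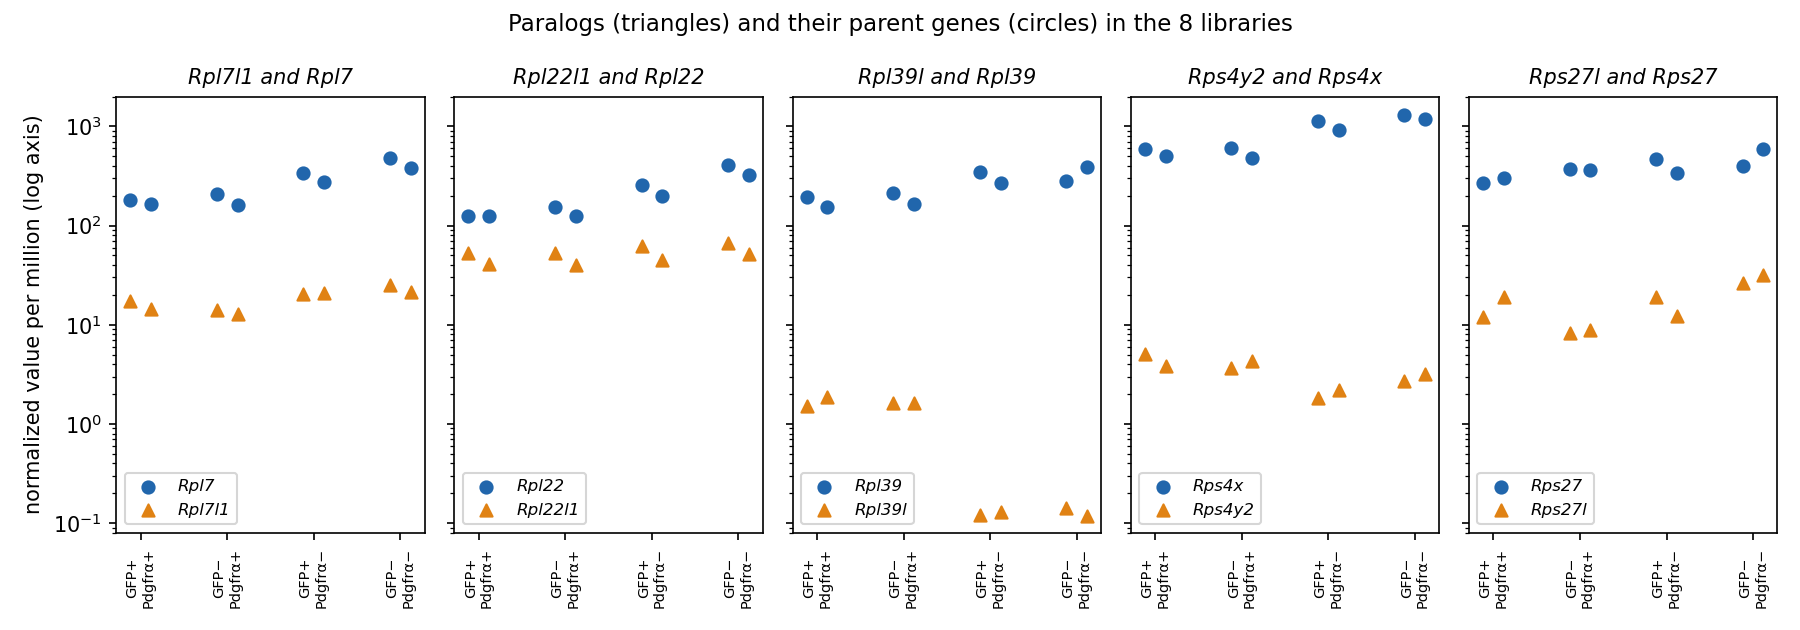
Normalized values of paralogs (triangles) and their parent genes (circles) in each library (y axis, log scale), by sorted population (x axis), with 1 panel per pair. *Rpl39l* has 0 reads in all 4 Pdgfrα- libraries, drawn at the value that the added 0.5 gives, while *Rpl39* is highest there, and *Rpl22l1* lies between 39.7 and 66.2 in all populations while *Rpl22* ranges from 123 to 406.

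Other genes of the translation apparatus were compared from lists. Of 4 further ribosomal components outside the naming rule, 4 were lower in Pdgfrα+ cells among GFP- and 1 among GFP+ cells, where 26.8% and 11.1% of all genes were lower. *Gnb2l1*, the scaffold protein Rack1 of the small subunit, had normalized values of 252 and 222, 222 and 192, 472 and 384, and 836 and 638 and log2 differences of −1.82 and −0.84. Of 16 elongation factors and other genes with TOP mRNAs, 14 and 12 were lower in these comparisons, among them *Eef1a1* by −0.69 and −0.47 and *Eef2* by −1.02 and −0.63. *Vim*, a TOP mRNA that codes for a filament protein of mesenchymal cells, was the 1 gene of this list that was higher in Pdgfrα+ cells among GFP- cells, at 4.90.

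Genes that build ribosomes were counted on the authors' scaling. Of 34 ribosome assembly factors, 27 were lower in GFP+ cells of the Pdgfrα- fraction, with a median log2 difference from GFP- cells of −1.12, and 32 were lower in Pdgfrα+ cells of the GFP- fraction, with a median of −1.73. In Pdgfrα+ cells of the GFP+ fraction 14 were lower and 20 were not called, with a median of −0.63. Of all genes, 23.6%, 26.8% and 11.1% were lower in these 3 comparisons. *Ncl*, nucleolin, had normalized values of 467 and 401, 448 and 488, 837 and 738, and 2035 and 1839. *Nop56*, a core protein of the small nucleolar particles, had values of 97.9 and 79.5, 58.1 and 64.3, 125 and 160, and 494 and 443. Both were far higher in GFP- Pdgfrα- cells than elsewhere.

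RNA polymerase I and its factors were lower for 10 of 13 genes in GFP+ cells of the Pdgfrα- fraction, for 11 in Pdgfrα+ cells of the GFP- fraction and for 2 in Pdgfrα+ cells of the GFP+ fraction. Initiation factors were lower in 21, 23 and 6 of 24 genes in these 3 comparisons, where 23.6%, 26.8% and 11.1% of all genes were lower. For mitochondrial ribosomal proteins, which belong to a separate ribosome, the counts were 32, 49 and 4 of 76. Of 6 hosts of small nucleolar RNAs, 3, 5 and 3 were lower, and *Gas5* had values of 269 and 254, 263 and 221, 362 and 293, and 787 and 782. By Pdgfrα among GFP+ cells the median log2 difference of the mitochondrial set was −0.31, against −0.73 for the 81 genes and −0.02 for all genes. Its 76 genes summed to 811 to 1688 per library, so on average they had far lower values than most members. The sets were not tested against each other.

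Among 14 regulators of growth, *Myc*, which drives ribosome synthesis, had normalized values of 80.0 and 73.4, 43.7 and 34.01, 66.9 and 81.9, and 135 and 155. It was higher in GFP+ than in GFP- cells with Pdgfrα, by 0.97 (limma adjusted p = 0.00715), and lower without it, by −0.96, as *Rpsa* was. *Mycn* had values of 20.03 and 32.3 in GFP+ Pdgfrα- cells and of at most 1.24 in the other populations. *Larp1*, which binds TOP mRNAs, had values of 205 and 175, 157 and 166, 226 and 229, and 501 and 484. In all, 6 of the 14 were lower in Pdgfrα+ cells among GFP- cells (26.8% of all genes were) and 3 were lower and 1 higher among GFP+ cells (11.1% and 13.1% of all genes were). *Malat1*, which stays in the nucleus and serves here as a mark of the nuclear share of RNA, had values of 6931 and 7331, 9957 and 11397, 8182 and 7247, and 3561 and 4265, lowest where ribosomal protein genes were highest. The part of the nuclear share in their values was not tested.

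Promoters were read from RefSeq on the build GRCm38.p6, from 250 bases before to 50 after each start. They were listed for 60 of the 81 genes, with 71 starts, against 32851 starts of 27025 genes in all. CCGGAAG, the core of ETS family motifs, was found on either strand in 36.6% of the members' promoters against 8.86% of all promoters, GGGCGG, the SP1 box, in 60.6% against 35.7%, and AAGATGG, a YY1 core, in 16.9% against 6.34%. TATAAA was found in 9.86% against 13.6%, the E box CACGTG that Myc can bind in 11.3% against 7.15%, and the NRF1 core GCGCATGC in 4.23% against 2.71%. An unbroken run of at least 8 C and T bases within 10 bases on either side of the start, where a TOP mRNA would begin, was found in 29.6% of the members' starts and in 7.43% of all starts. The median longest run inside that window was 5 bases against 4, and runs were counted only as far as the window's edge. These matches describe letters and not bound sites.

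The 30 bases around the start are shown for 6 members, chosen with their values known. Capitals mark the longest run of C and T inside the window of 10 bases on either side of the start, cut where a run passes its edge. *Rpsa* and *Rps2* had the most negative Pdgfrα differences among GFP- cells relative to the family's median. Those of *Rps27*, *Rpl22l1*, *Rpl39l* and *Rpl39* were positive. *Rpl39l* had 0 reads in Pdgfrα- libraries, so its place here is not a free test. The windows shown lie at chr9:120127751-120127780 (plus strand), chr17:24720048-24720077 (plus), chr3:90213634-90213663 (minus), chr3:28805493-28805522 (plus), chr16:10170213-10170242 (plus) and chrX:37085208-37085237 (minus) of GRCm38.p6, in the order below.
Rpsa: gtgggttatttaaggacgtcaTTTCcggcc
Rps2: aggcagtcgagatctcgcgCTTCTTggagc
Rps27: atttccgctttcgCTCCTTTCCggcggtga
Rpl22l1: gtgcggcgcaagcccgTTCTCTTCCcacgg
Rpl39l: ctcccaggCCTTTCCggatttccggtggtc
Rpl39: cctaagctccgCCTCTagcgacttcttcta
The capitals, which leave out C and T bases beyond that window, span 4 bases in *Rpsa*, 6 in *Rps2*, 9 in *Rps27*, 9 in *Rpl22l1*, 7 in *Rpl39l* and 5 in *Rpl39*. The run of *Rpl39l* ends before the start base. Windows read but not printed had runs of 2 bases in *Rpl10*, 2 in *Rpl7l1*, 7 and 4 at the starts of *Rps27l*, and 5 and 3 at those of *Rpl22*. Relative to the family's median, the Pdgfrα difference among GFP- cells was 0.79 for *Rpl10* on its own reads. It was positive for *Rpl7l1* and negative for *Rps27l* and *Rpl22*, none of them called. How run length relates to these values over the whole family was not tested.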

How the data were processed

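RNA-seq of 4 sorted populations with 2 libraries each was analysed. Values in the deposited table are a normalized signal that is not logged. The authors removed adaptors with cutadapt, quantified reads on the NCBIM37 transcriptome (Ensembl 65) with RSEM, filtered genes and normalized with voom of limma. Whole reads, to within 0.1 of a read, were recovered from 100% of values.

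Members were found in the GENCODE annotation of that build. The members and lists were chosen with earlier results of these data known. log2(value + 1) was fitted with limma 3.58.1 in R 4.3.3 (trend, 1 coefficient per population, 4 residual degrees of freedom), with p-values adjusted by Benjamini-Hochberg over 15880 genes. On recovered reads edgeR 4.0.16 called 893, 8415, 3586 and 9281 genes in the 4 pairwise comparisons (GFP among Pdgfrα+, GFP among Pdgfrα-, Pdgfrα among GFP+, Pdgfrα among GFP- cells) and 6644 in the interaction. Tables were made with pandas 2.3.3, numpy 2.4.6 and scipy 1.17.1 under Python 3.11.15, and figures with matplotlib 3.10.9. The fits were tested on simulated data.

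Named members are paralogs and their parents, the stalk genes and *Rpsa*, the 3 largest called differences of each direction and pairwise comparison, the 3 highest and 3 lowest per kb of exon, and members with known roles in disease, signalling or the skeleton. *Rps4l* of that rule is *Rps4y2* in the annotation. Others are marked where named.

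The study describes each independent set as pooled littermates, so replicate numbers were read as pools. Deviations of same-numbered libraries correlated at 0.004 to 0.081 over 6 pairs of populations, and the replicate block was an alternative. Other alternatives were pseudocount 0.1, no trend, centring on the median of all genes or of the members, quantile normalization, totals without mitochondrial genes, a filter on low values, voom, edgeR, fits of the compared populations alone and leaving out each library. Summing members with their pseudogenes and scaling to all reads of a library were added after the data were seen.

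Lists of erythroid, myeloid, lymphoid, megakaryocyte, endothelial, muscle, Schwann, cartilage, osteoblast, pericyte and stromal markers, and of nuclear RNAs, were counted in the same fit.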

Additional observations from a re-analysis of the deposited data

Results flagged for a closer look

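The difference between GFP+ and GFP- cells depended on Pdgfrα, by limma's interaction term, in 24 of the 81 ribosomal protein genes, all with a positive sign, where 19.1% of all genes were called with a positive and 25.2% with a negative sign. The count was 11 with no mean-variance trend and 58 when centred on the median of all genes. Among the named members the log2 interaction was 2.42 for *Rpsa*, 1.64 for *Rps27l*, 1.53 for *Rps2*, 1.52 for *Rplp1*, 1.16 for *Rps6*, 0.71 for *Rpl4*, 0.71 for *Rplp0* and 0.69 for *Rpl13a*. In each of these 8 the value was lower in GFP+ than in GFP- cells without Pdgfrα, and the difference with Pdgfrα was called for *Rpsa* alone. The calls without Pdgfrα of *Rps27l*, *Rps6*, *Rpl4* and *Rpl13a* were lost under some alternatives. On all reads of each library, *Rpsa*, *Rps27l*, *Rps2* and *Rplp1* of these were still called, and 7 of the 81 were called with a positive sign, where 12.7% of all genes were.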

How the results depend on the processing

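Of 54 called differences of named members, 28 were called under every alternative other than centring on the members' own median. Of 1132 alternative values, 1008 had the same direction and call, 110 the same direction without a call, and 14 the opposite sign. Those 14, all under centring on the members' median, which removes the family's shared difference by construction, were, among GFP- cells (Pdgfrα+ minus Pdgfrα-), *Rpl11* 0.45, *Rpl24* 0.44, *Rpl38* 0.028, *Rpl39* 0.51, *Rpl5* 0.58, *Rpl7* 0.12, *Rpl7l1* 0.58, *Rps14* 0.60, *Rps27a* 0.36 and *Rps4x* 0.12; among GFP+ cells *Rpl38* 0.0052, *Rpl4* 0.061 and *Rps2* 0.075; and between the Pdgfrα- populations *Rpl7* 0.10.

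Counts of called members moved as follows, and the cause was not tested. Without the trend, 0 were called between the Pdgfrα+ populations, 21 between the Pdgfrα- populations, 29 by Pdgfrα among GFP+ cells and 11 in the interaction. Centring on all genes gave 73 between the Pdgfrα- populations and 58 in the interaction, quantile normalization 21 and 15, and scaling to all reads 11 and 8. Centring on the members gave 8 between the Pdgfrα- populations, 2 and 21 by Pdgfrα among GFP+ and GFP- cells and 4 in the interaction. Leaving out each library gave 0 to 2 between the Pdgfrα+ populations, 20 to 43 between the Pdgfrα- populations, 25 to 67 and 68 to 77 by Pdgfrα among GFP+ and GFP- cells, and 16 to 33 in the interaction; the remaining library of a population is then assumed to vary like the others.

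With the replicate block, the paired fit, 1, 44, 63 and 77 members were called in the pairwise comparisons (GFP among Pdgfrα+, GFP among Pdgfrα-, Pdgfrα among GFP+, Pdgfrα among GFP- cells) and 33 in the interaction.

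The members' median log2 difference between the Pdgfrα- populations was −0.91 centred on all genes, 0.12 centred on the members, −0.22 after quantile normalization, −0.0096 on all reads and −0.62 to −0.32 without single libraries. By Pdgfrα among GFP+ cells it was −0.048 centred on the members, −1.04 without mitochondrial genes and −0.91 to −0.63 without single libraries. Among GFP- cells it was −1.74 centred on all genes, 0.043 centred on the members, −0.96 on all reads and −1.39 to −1.16 without single libraries. Shares outside mitochondrial genes were 1.74%, 1.696%, 3.52% and 4.60%, and outside haemoglobin genes as well 1.74%, 1.696%, 3.52% and 4.68%. The cause was not tested. With 2 pools per population, differences of members under 0.16 on the log2 scale could not be told from the spread between libraries. Larger ones are not thereby resolved, since 0.16 is only 1 SD of the family's median, pooled over the populations. That median was higher in replicate 1 of each population, at 7.43 against 7.11, 7.32 against 7.08, 8.07 against 7.84 and 8.54 against 8.51. The spread of 0.16 does not take out this shared shift. At 3 reads or fewer a member's value was at the floor.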

Other observations

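Markers of other cell types in the sorted populations were also counted. Of 9 myeloid genes, led by *Lyz2*, 7 were lower in Pdgfrα+ cells of the GFP- fraction, a comparison in which 26.8% of all genes were lower and 32.9% higher, with sums of at most 91.5 in any library. Of 5 endothelial genes, led by *Tek*, 1 was higher and 2 were lower in that comparison, and their sums lay between 30.6 and 113. Of 5 cartilage genes, led by *Col2a1*, 2 were higher and 1 lower, with a sum of 1868 in GFP- Pdgfrα+ replicate 2 and of 534 in replicate 1. Of 2 megakaryocyte genes 1 was lower, and *Cd79a*, the 1 lymphoid gene in the table, was not called. Of 5 stromal genes, led by *Pdgfra* itself, 5 were higher in Pdgfrα+ cells among GFP- cells. Of 4 nuclear RNAs, led by *Malat1*, 3 were higher there.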
